A study of Mus musculus with 4 samples.

Results

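Transcripts of monocytes and macrophages were examined in RNA sequencing libraries of type 1 innate lymphoid cells (ILC1s), lymphocytes in which these genes are mostly not the defining ones. The set held 34 of the 40481 genes in the deposited table. Its members were chosen by gene symbol, because they had been seen higher in the libraries labelled knockout or because they are known markers of these phagocytes. The genotype difference was therefore used in the choice, and the fold changes of the members are a description with no test behind them. The cells came from mice and were selected by the surface integrin CD49a. Control libraries 1 and 2 came from Inpp4b flox/flox mice, and libraries 3 and 4, labelled knockout, came from Inpp4b flox/flox mice that also carried Ncr1-iCre (n = 2 each). All 4 libraries thus share the floxed Inpp4b alleles, and the presence of iCre cannot be told apart from the deletion it drives. Ncr1 encodes NKp46, an activating receptor of natural killer (NK) cells and ILC1s, so the recombinase is placed in those cells and not in monocytes. Ages and treatments were not given in the labels, and they name liver for control library 1 but no tissue for the other libraries.

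Monocytes are blood phagocytes that depend on the receptor CSF1R and on the transcription factor PU.1, the product of Spi1. In the mouse, classical monocytes carry high Ly6C and the chemokine receptor CCR2 and enter inflamed tissue, where they can become macrophages or dendritic cells. Patrolling monocytes carry low Ly6C and high CX3CR1, crawl along the vessel wall, and depend on the nuclear receptor gene Nr4a1. The liver also holds Kupffer cells, its resident macrophages, which express genes such as Clec4f and Timd4 that blood monocytes lack.

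Library totals ranged from 42380840 to 54878210 counts. Inpp4b itself was at 78.7 and 106.5 CPM (counts scaled to library size, with TMM factors) in the controls and at 142.5 and 86.0 CPM in the libraries labelled knockout, with an edgeR log2 fold change of 0.30 (SE 0.28, adjusted p = 0.828). The targeted transcript was therefore not lower in the libraries labelled knockout, and the table, which sums whole genes, does not check the deletion of single exons. The ILC1 identity of the libraries was checked with 16 markers, whose summed level was 26881 and 29068 CPM in the controls against 26972 and 31335 CPM in libraries 3 and 4. Among the 16 markers, log2 fold changes ran from -0.60 to 0.50. DESeq2 called 1 of them lower and 0 higher, while edgeR called 0. In edgeR, 1 marker in each direction had an unadjusted p under 0.05. Ncr1 was lower in libraries 3 and 4, at 1202 and 1077 CPM, than in the controls, at 1672 and 1772 CPM. Only libraries 3 and 4 carried Ncr1-iCre, and an effect of iCre on the Ncr1 transcript was not tested. In a bulk library, fewer cells of a type and less RNA per cell cannot be told apart. Whether each library stands for a separate animal is not stated, so p-values here cover only the spread among 4 libraries, which may be technical.

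The 34 members together made up 412.5 and 592.0 CPM in control libraries 1 and 2, and 1768 and 1829.6 CPM in libraries 3 and 4. This sum was 0.0412% and 0.0592% of the control libraries against 0.177% and 0.183% of the libraries labelled knockout. The groups did not overlap, and the ratio of the group means was 3.58. Without Pglyrp1 and Fgr, which were abundant in every library, the remaining 32 members summed to 154.5 and 239.6 CPM against 1416 and 1426 CPM, a ratio of 7.21. Both libraries labelled knockout lay above both controls for 33 of the 34 members, and Pglyrp1 was the exception. Of all 14863 genes tested, 19.5% lay above in the same way and 20.8% lay below. The direction of the members was fixed by their choice, and nothing is read from that contrast.

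By level, 23 of the members stayed under 5 CPM in both controls, and 31 were over 5 CPM in both libraries labelled knockout. The log2 fold change was over 1 for 32 members, over 2 for 27 and over 3 for 12. The median was 2.70, against -0.01 over all genes tested. All 34 passed the filter on low counts. In the fit across all genes, 0.141% of genes passed edgeR's adjusted threshold of 0.05 as higher and 0.0135% as lower, and 11 members were among the former. These were Csf1r, Cybb, Serpine2, Stom, Cd300a, Tgfbi, Ctss, Clec4a3, Clec4a1, Lyz2 and Lilra5. DESeq2 called 1.83% of genes higher and 1.34% lower, among them 30 of the 34 members, all but Fgr, Lst1, Pglyrp1 and Spi1. Since these calls rest on the values by which the members were chosen, they describe the members and nothing is read from their number. The count of 11 fell to 1 without control library 1, control library 2 or library 3, and to 0 without library 4, where 1452 genes still had an unadjusted p under 0.05.

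**Figure D1:**
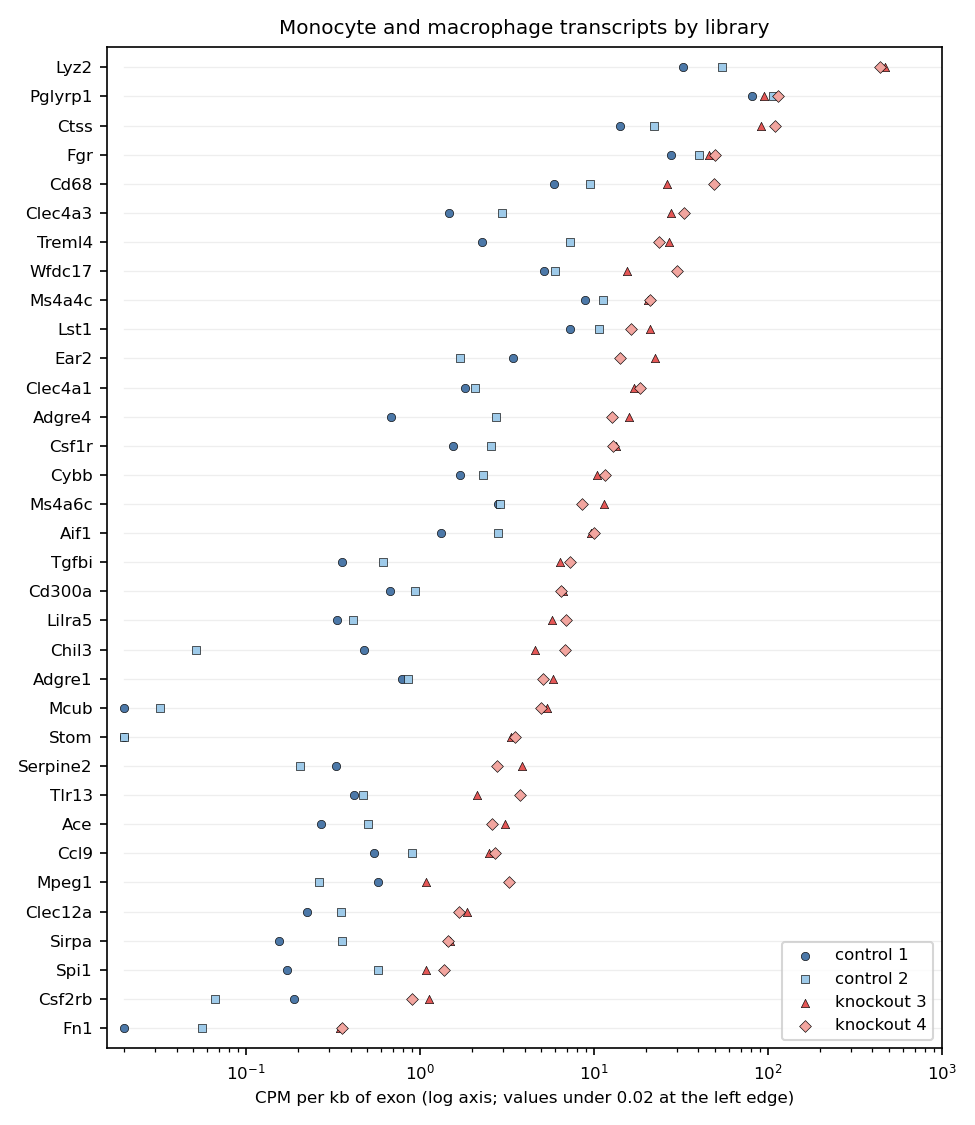
TMM-scaled CPM per kb of exon of the 34 members, in order of the mean of libraries 3 and 4 (log axis, values under 0.02 drawn at the left edge), with a point for each of the 2 control libraries and the 2 libraries labelled knockout. The groups are apart for 33 members, while Pglyrp1 overlaps, and Lyz2 lies highest in libraries 3 and 4 at 475.7 and 442.7 CPM per kb.

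Lysosomal genes held the most abundant member. Lyz2, which encodes the lysozyme that phagocytes use to cut bacterial walls (mm10, chr10:117277331-117282321), was at 43.1 and 71.5 CPM in the controls and at 626 and 583 CPM in libraries 3 and 4. Both control values were far under both others, and the log2 fold change was 3.40 (SE 0.27). Lyz2 alone made up 33.6% of the members' summed CPM in the libraries labelled knockout, and its reads may be shared with the near-identical Lyz1. Per kilobase of exon it also ranked first, at 475.7 and 442.7 CPM per kb in libraries 3 and 4, with Pglyrp1 next at 94.97 and 114.8 CPM per kb and Ctss close to it at 91.7 and 109.9 CPM per kb. The ranges of Pglyrp1 and Ctss overlapped. Fn1 was lowest on this scale, at 0.35 and 0.36 CPM per kb.

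Ctss, which encodes the cathepsin that trims the invariant chain of class II molecules, was at 19.2 and 30.3 CPM in the controls and at 124.4 and 149.2 CPM in libraries 3 and 4, a log2 fold change of 2.47 (SE 0.26). Cd68, a glycoprotein of macrophage lysosomes, was at 7.38 and 12.0 CPM against 33.3 and 61.4 CPM, with library 4 well above library 3. Mpeg1, which encodes the pore-forming perforin-2 of phagosomes, differed more within the libraries labelled knockout than any other member, with 2.48 and 1.14 CPM in the controls and 4.70 and 14.1 CPM in libraries 3 and 4. All 3 had groups that did not overlap, but for Cd68 and Mpeg1 the gap between library 3 and the nearer control was smaller than that between libraries 3 and 4.

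Growth factor receptors of the monocyte lineage were low in the controls. Csf1r, the receptor for CSF1 and IL-34, was at 8.95 and 14.9 CPM in the controls and at 77.7 and 74.9 CPM in libraries 3 and 4. The values within each group were close beside the gap between groups, and the log2 fold change was 2.68 (SE 0.29). Its exons overlap those of Hmgxb3 on the opposite strand over 873 of 5774 bases, and the strand setting of the counting was not given in the sources used here. Csf2rb, the common beta chain of the receptors for GM-CSF, IL-3 and IL-5, was at 1.38 and 0.49 CPM against 8.21 and 6.59 CPM, a log2 fold change of 2.98 (SE 0.64), with reads that may be split with its copy Csf2rb2.

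Paired receptors, surface proteins that activate or inhibit myeloid cells, were a further role group. The C-type lectin receptor genes Clec4a1 and Clec4a3 are neighbours on chromosome 6. Clec4a1 (mm10, chr6:122921848-122934619) was at 2.83 and 3.24 CPM in the controls and at 26.7 and 28.7 CPM in libraries 3 and 4, a log2 fold change of 3.19 (SE 0.30). Clec4a3 (chr6:122952515-122969875), which encodes an inhibitory receptor of the family, was at 1.97 and 3.96 CPM against 36.9 and 43.9 CPM, a log2 fold change of 3.77 (SE 0.42). Each pair of libraries was tight for Clec4a1, while control 2 lay above control 1 for Clec4a3. Both belong to a family of similar genes, so their reads may be shared among copies.

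Lilra5 (chr7:4237754-4243463), a leukocyte immunoglobulin-like receptor, had the second highest fitted log2 fold change among members with at least 1 count in each library, 4.09 (SE 0.42). It was at 0.71 and 0.87 CPM in the controls and at 12.1 and 14.7 CPM in libraries 3 and 4. Cd300a, an inhibitory receptor for aminophospholipids, was at 3.19 and 4.45 CPM against 31.5 and 30.5 CPM, a log2 fold change of 3.02 (SE 0.32). Clec12a, an inhibitory receptor for uric acid crystals, was at 1.24 and 1.95 CPM against 10.3 and 9.30 CPM. Sirpa, the receptor for the don't-eat-me signal CD47, was at 0.76 and 1.76 CPM against 7.35 and 7.09 CPM. In these 4 genes libraries 3 and 4 were close to each other and well above both controls.

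Treml4, a receptor known from patrolling monocytes and splenic macrophages (chr17:48264295-48275360), was at 4.54 and 14.5 CPM in the controls and at 54.1 and 47.6 CPM in libraries 3 and 4. Control 2 was over 3 times control 1, and both remained under libraries 3 and 4. The log2 fold change was 2.42, with an SE of 0.53 that was larger than for the other receptors named except Csf2rb and Sirpa.

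PU.1 and related ETS factors bind purine-rich sequence in the promoters of myeloid genes. Bases before the start sites are shown for 6 members, the receptor genes Clec4a1, Clec4a3, Lilra5 and Treml4 with Chil3 and Lyz2. All 6 windows hold a match to the sequences looked for, so they do not stand for the members at large. Windows of 250 bases before the RefSeq start (GRCm38.p6) were held for 27 of the 34 members, and for Csf1r, Adgre1, Csf2rb, Sirpa, Fn1, Spi1 and Lst1 no window was used. In the sequences below, read 5′ to 3′ on the strand of the gene, capitals mark GAGGAA or GGAAGT, which read as TTCCTC or ACTTCC on the other strand. For Lyz2 only 201 bases are shown, since the rest of its window lies in an exon of the GENCODE annotation. GENCODE starts Clec4a3 at base 122952515, before the RefSeq start, so the later bases of that window, the match among them, lie within the gene by that annotation.
Clec4a1: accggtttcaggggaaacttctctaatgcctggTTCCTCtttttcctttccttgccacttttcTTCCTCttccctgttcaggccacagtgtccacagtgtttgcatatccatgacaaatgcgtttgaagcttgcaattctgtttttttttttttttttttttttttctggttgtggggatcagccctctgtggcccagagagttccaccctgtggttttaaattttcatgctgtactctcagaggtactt
Clec4a3: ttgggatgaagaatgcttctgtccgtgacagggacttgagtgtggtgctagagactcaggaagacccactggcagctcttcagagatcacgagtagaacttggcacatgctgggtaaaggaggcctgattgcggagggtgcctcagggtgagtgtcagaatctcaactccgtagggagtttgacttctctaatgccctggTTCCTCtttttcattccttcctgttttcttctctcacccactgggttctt
Lilra5: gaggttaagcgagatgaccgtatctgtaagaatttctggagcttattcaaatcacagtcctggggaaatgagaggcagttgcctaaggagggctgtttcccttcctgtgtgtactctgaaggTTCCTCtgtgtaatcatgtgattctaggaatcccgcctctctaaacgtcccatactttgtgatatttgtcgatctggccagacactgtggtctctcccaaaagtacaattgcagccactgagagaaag
Treml4: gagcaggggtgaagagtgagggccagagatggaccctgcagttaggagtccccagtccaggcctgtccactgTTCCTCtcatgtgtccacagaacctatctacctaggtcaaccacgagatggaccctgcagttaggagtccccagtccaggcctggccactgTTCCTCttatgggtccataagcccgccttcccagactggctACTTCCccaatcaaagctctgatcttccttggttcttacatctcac
Chil3: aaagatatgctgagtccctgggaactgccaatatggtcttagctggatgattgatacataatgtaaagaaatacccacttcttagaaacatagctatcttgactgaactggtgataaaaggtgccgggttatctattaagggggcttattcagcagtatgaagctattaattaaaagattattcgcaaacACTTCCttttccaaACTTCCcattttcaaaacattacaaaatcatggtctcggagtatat
Lyz2: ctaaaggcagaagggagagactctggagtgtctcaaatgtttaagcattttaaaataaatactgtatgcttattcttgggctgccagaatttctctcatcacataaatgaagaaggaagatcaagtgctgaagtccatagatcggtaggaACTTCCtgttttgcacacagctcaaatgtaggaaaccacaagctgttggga
These stand at chr6:122921598-122921847 (plus strand), chr6:122952394-122952643 (plus), chr7:4237504-4237753 (plus), chr17:48264045-48264294 (plus), chr3:106167565-106167814 (minus) and chr10:117282322-117282522 (minus).

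All matches in the 6 windows lay on the strand opposite to the gene. Treml4 held 3, Clec4a1 and Chil3 held 2 each, and the others held 1. Clec4a1 and Clec4a3 shared an exact run of 17 bases around a match, cctggTTCCTCtttttc, which began at position -222 in the first and at -55 in the second, counted back from the start site. Over both strands, GAGGAA was found in 15 of the 27 members with a window (55.6%) and in 25.9% of 27025 genes with a window of the same length. GGAAGT was found in 8 of 27 (29.6%) against 22.2%, and the longer GAGGAAGT, in which both overlap, in 0 of 27 against 2.79%. TTGCNNAA, the core of sites bound by C/EBP factors, was found in 6 of 27 (22.2%) against 10.8%. AAAGGTCA, the site bound by single NR4A receptors, was found in 0 of 27 against 1.55%. A match is a run of letters and no measure of binding, and no match says only that those letters are not in the window.

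Surface proteins of other families were also low in the controls. Adgre1, which encodes the macrophage marker F4/80, was at 2.57 and 2.77 CPM in the controls and at 18.8 and 16.6 CPM in libraries 3 and 4, a log2 fold change of 2.73 (SE 0.34). Adgre4, an adhesion receptor of the same family (chr17:55749984-55853662), was at 2.40 and 9.63 CPM against 55.6 and 44.7 CPM. Its controls stood apart from each other, and its log2 fold change of 3.06 had an SE of 0.63. Ms4a6c was at 5.76 and 5.91 CPM against 23.5 and 17.6 CPM, and Ms4a4c at 15.5 and 19.9 CPM against 36.1 and 36.9 CPM. For Ms4a6c, 1088 of 2050 exon bases are shared with BE692007 on the opposite strand.

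Genes of microbial sensing and killing formed a smaller group. Cybb, which encodes the catalytic subunit of the phagocyte NADPH oxidase, was at 9.85 and 13.4 CPM in the controls and at 60.3 and 67.4 CPM in libraries 3 and 4, with a log2 fold change of 2.45 (SE 0.25). Tlr13, a mouse receptor for bacterial ribosomal RNA, was at 1.79 and 2.03 CPM against 9.19 and 16.3 CPM. Aif1, the actin-binding protein known as IBA1, was at 2.02 and 4.30 CPM against 14.8 and 15.3 CPM. Every value of libraries 3 and 4 was above every control value in all 3 genes.

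Secreted products ranged widely. Tgfbi, a matrix protein induced by TGF-beta, was at 1.35 and 2.33 CPM in the controls and at 24.1 and 27.4 CPM in libraries 3 and 4, a log2 fold change of 3.81 (SE 0.40). Serpine2, a serine protease inhibitor, was at 2.72 and 1.69 CPM against 31.9 and 23.1 CPM, a log2 fold change of 3.63 (SE 0.40). Chil3, the chitinase-like protein Ym1, was at 0.78 and 0.085 CPM against 7.49 and 11.2 CPM. Control 2 rested on 4 counts and control 1 on 45, and the log2 fold change of 4.41 had an SE of 0.96, the largest error among the members detected in every library. Fn1, fibronectin, was at 0.14 and 0.66 CPM against 4.07 and 4.17 CPM.

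Wfdc17, a small whey acidic protein of macrophages, was at 2.76 and 3.20 CPM in the controls and at 8.31 and 16.04 CPM in libraries 3 and 4. Ccl9, a chemokine ligand of CCR1, was at 1.66 and 2.73 CPM against 7.56 and 8.25 CPM. Ace, the angiotensin-converting enzyme and a mark of patrolling monocytes that endothelium also expresses, was at 1.43 and 2.67 CPM against 16.2 and 13.8 CPM. Ear2, a ribonuclease of eosinophils and patrolling monocytes with several near-identical copies, was at 2.48 and 1.23 CPM against 16.1 and 10.2 CPM. Library 4 was above library 3 for Wfdc17 and below it for Ear2, and the groups did not overlap in any of the 4.

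Stom and Mcub were almost undetected in the controls. Stom, which encodes the membrane protein stomatin, had 0 counts in control 1 and in control 2, against 406 and 514 counts in libraries 3 and 4. Against a floor of 3 counts per library this was at least 168-fold higher. Mcub, an inhibitory subunit of the mitochondrial calcium uniporter, had 0 and 2 counts in the controls and 306 and 339 in libraries 3 and 4, a ratio of 358 with an exact 95% interval of 98.8 to 2965 that covers counting error only. Neither protein is restricted to monocytes.

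Spi1 and Lst1 were among the members with lower fold changes. Spi1, the gene of PU.1, was at 0.47 and 1.55 CPM in the controls and at 2.91 and 3.73 CPM in libraries 3 and 4, a log2 fold change of 1.72 (SE 0.78). Lst1, a small leukocyte transmembrane adaptor, was at 3.04 and 4.45 CPM against 8.70 and 6.78 CPM, with a log2 fold change of 1.05 (SE 0.43). For both, the gap between groups was small beside the spread within them, in comparison with Lyz2 or Csf1r.

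Pglyrp1 and Fgr stood apart from the other 32 members in that they were abundant in the controls. Pglyrp1, a peptidoglycan-binding protein known from neutrophils, was at 149.9 and 197.4 CPM in the controls and at 174.5 and 210.9 CPM in libraries 3 and 4. The groups overlapped, the log2 fold change was 0.15 (SE 0.19), and it turned to -0.04 without control 1 and to -0.02 without library 4. Fgr, a SRC family kinase, was at 108.1 and 155.0 CPM against 178.2 and 192.4 CPM, with a log2 fold change of 0.49 (SE 0.20) and no overlap. Neither had an adjusted p under the threshold of 0.05 in edgeR or DESeq2.

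The next question was which monocyte state the pattern resembled, for which lists of 18 patrolling and 14 classical genes were used. They hold 5 and 3 members, and the other genes of each list are given apart from them. Both lists were written with earlier results of these data known. The counts of calls in them are therefore a description, and they are no independent check of a monocyte state. Among the 13 further patrolling genes, 1 passed edgeR's test and 6 passed DESeq2's. In 11 of the 13 both libraries labelled knockout lay above both controls, against 19.5% of all genes tested. In edgeR, 10 had an unadjusted p under 0.05 in that direction, against 4.48% of all genes higher and 5.17% lower. The median log2 fold change over these 13 was 1.41.

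Fcgr4, the activating IgG receptor FcγRIV of patrolling monocytes and other phagocytes, was the further patrolling gene that passed edgeR's adjusted threshold. It was at 2.52 and 2.22 CPM in the controls and at 20.2 and 20.4 CPM in libraries 3 and 4, with an edgeR log2 fold change of 3.10 (SE 0.33, adjusted p = 0.049). Libraries of the same group were nearly equal. Ceacam1, an adhesion molecule, was at 1.5004 and 2.58 CPM against 12.8 and 14.5 CPM. Cd36, a scavenger receptor that endothelium also expresses, was at 2.83 and 8.28 CPM against 37.9 and 29.99 CPM, and Cd300e was at 3.36 and 4.42 CPM against 18.6 and 15.3 CPM. Groups did not overlap in these genes, though no adjusted p in edgeR passed the threshold for the last 3.

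Among the other patrolling genes, Nr4a1, on which patrolling monocytes depend and which antigen or cytokine receptors also induce in lymphocytes, was at 19.6 and 30.8 CPM in the controls and at 55.03 and 41.8 CPM in libraries 3 and 4. Cx3cr1, the fractalkine receptor, was at 1.24 and 6.56 CPM against 15.8 and 8.85 CPM, so that control 2 came close to library 4. Gngt2 was at 23.2 and 31.3 CPM against 60.2 and 63.3 CPM, and Pou2f2 at 5.28 and 5.84 CPM against 14.9 and 14.8 CPM. The log2 fold changes of Eno3, a muscle-type enolase, and Fabp4, a fatty acid carrier, were 1.30 (SE 0.54) and 2.41 (SE 0.74).

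Lymphocytes also express some genes of the patrolling list. Itgal, a chain of the integrin LFA-1, was at 818 and 941 CPM in the controls and at 848 and 925 CPM in libraries 3 and 4, with groups that overlapped and a log2 fold change of 0.01 that turned below 0 under 4 of the alternatives. Spn, the sialoprotein CD43, was at 159.6 and 173.0 CPM against 208.1 and 217.5 CPM, with no overlap and a log2 fold change of 0.36 (SE 0.14). Cebpb, a transcription factor of patrolling monocytes, was low and overlapped, at 3.19 and 1.33 CPM against 3.23 and 1.80 CPM.

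Among the 9 further classical genes that were tested, 0 passed edgeR's test and 4 passed DESeq2's. In 8 of the 9 the groups did not overlap with libraries 3 and 4 above, against 19.5% of all genes tested. In edgeR, 6 had an unadjusted p under 0.05 in that direction, against 4.48% of all genes. Their median log2 fold change was 2.05. Plac8, a gene that both monocytes and lymphocytes express, was at 21.6 and 34.2 CPM in the controls and at 124.4 and 135.5 CPM in libraries 3 and 4, with an edgeR log2 fold change of 2.22 (SE 0.25, adjusted p = 0.054). Hp, haptoglobin, which hepatocytes also make, was at 6.81 and 3.13 CPM against 23.8 and 17.6 CPM.

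The surface markers by which classical monocytes are sorted had small differences. Ly6c2, a gene of Ly6C, was at 28.0 and 33.9 CPM in the controls and at 48.2 and 52.7 CPM in libraries 3 and 4, a log2 fold change of 0.71 (SE 0.21). Ccr2 was at 148.3 and 168.0 CPM against 224.0 and 192.9 CPM, a log2 fold change of 0.40 (SE 0.15). Both are also expressed by lymphocytes. Groups did not overlap for either.

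Further classical genes were rare in every library or differed between the libraries of a group. Vcan, the proteoglycan versican, was seen in library 3 alone, with 2 counts, and Thbs1, thrombospondin, had 16 and 0 counts in the controls and 3 and 8 counts in libraries 3 and 4, so neither was tested. F13a1, a coagulation factor subunit of monocytes and macrophages, was at 3.33 and 1.02 CPM against 4.54 and 8.35 CPM. Mmp8 and Cd177, which neutrophils also express, were at 0.069 and 0.021 CPM against 1.35 and 0.99 CPM and at 0.97 and 0 CPM against 1.65 and 9.24 CPM. Mgst1 overlapped between the groups, at 11.8 and 4.80 CPM against 11.4 and 11.7 CPM.

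**Figure D2:**
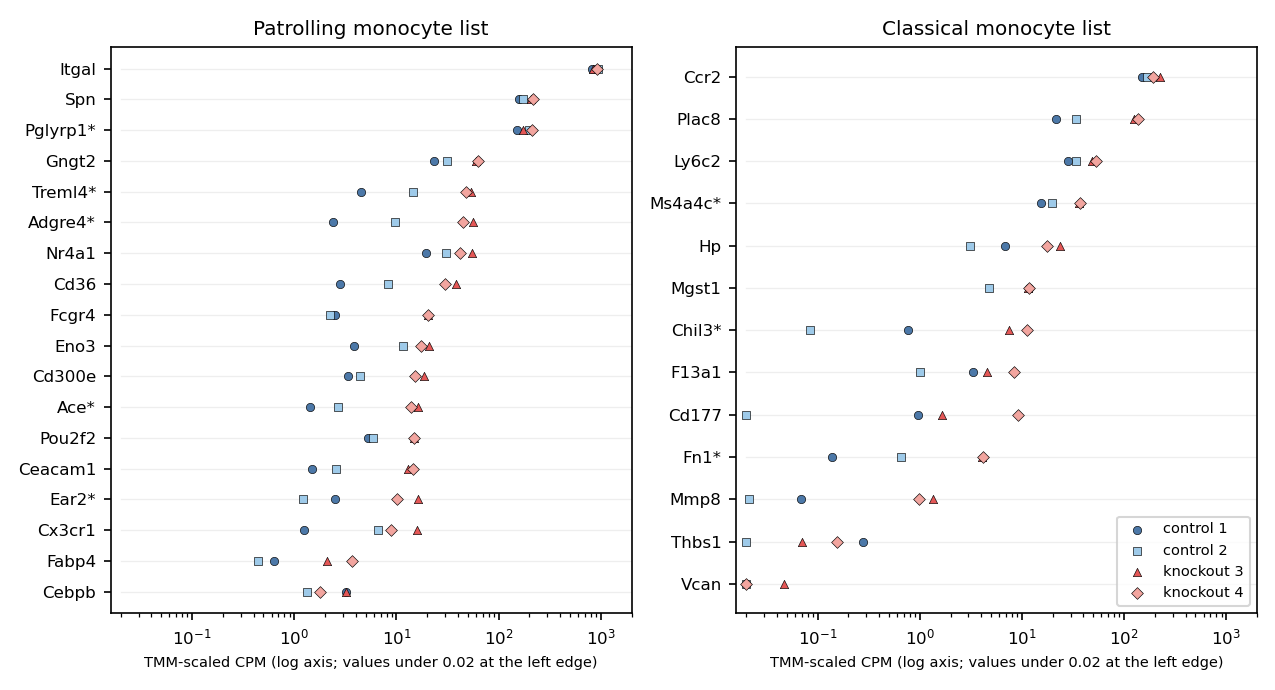
TMM-scaled CPM of the reported genes of the patrolling and classical lists (log axis, values under 0.02 drawn at the left edge), with a point for each of the 4 libraries, an asterisk at each member and some points hidden behind others. Both lists hold genes with libraries 3 and 4 far above the controls, such as Fcgr4 at 20.2 and 20.4 CPM and Chil3 at 7.49 and 11.2 CPM, and genes such as Itgal with no separation.

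The list medians did not order the 2 states in a stable way. With members included, the median log2 fold change was 1.89 over the 18 patrolling genes and 2.14 over the 12 classical genes tested. Without control 1 it was 1.57 for patrolling and 2.37 for classical genes, and without control 2 it was 2.33 for patrolling and 1.60 for classical genes. Without library 3 it was 1.67 for patrolling and 1.90 for classical genes, and without library 4 it was 1.96 for patrolling and 1.71 for classical genes. The order of the medians thus turned with the library left out, in either group. No test of the difference between the lists was made.

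Other genes of the pathways to which the members belong were taken from lists written with earlier results known. Among 21 further paired receptor genes tested, 0 passed edgeR's test and 12 passed DESeq2's. In edgeR, 15 were higher at an unadjusted p under 0.05, against 4.48% of all genes. For 18 of them libraries 3 and 4 lay above both controls, against 19.5% of all genes tested. Their median log2 fold change was 2.21. Cd300ld, an activating receptor of myeloid cells, was at 2.29 and 4.11 CPM in the controls and at 36.6 and 30.1 CPM in libraries 3 and 4 (log2 fold change 3.38, SE 0.39, edgeR adjusted p = 0.054). Pilra, an inhibitory receptor, was at 3.05 and 3.66 CPM against 27.7 and 17.1 CPM.

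By contrast with Cybb, the other 6 NADPH oxidase subunit genes had a median log2 fold change of 0.20, with 0 calls in edgeR and in DESeq2 and 0 with an unadjusted p under 0.05. Cyba, the partner of the catalytic subunit in the membrane, was at 587 and 659 CPM in the controls and at 751 and 792 CPM in libraries 3 and 4. Rac2, a GTPase of all blood cells, was at 2428 and 2769.5 CPM against 2676 and 3157 CPM. Ncf4 and Ncf1, cytosolic subunits, were at 114.7 and 134.6 CPM against 122.5 and 136.9 CPM and at 56.7 and 53.2 CPM against 76.1 and 53.0 CPM. The groups overlapped for Rac2, Ncf4 and Ncf1 and did not for Cyba. These named genes were more abundant in the controls than Cybb, which was at 9.85 and 13.4 CPM. The same gain in CPM would thus give them a lower fold change.

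In the list of signalling adaptors and SRC kinases, the adaptors named here were abundant in every library and had small fold changes between the groups. Tyrobp and Fcer1g, the adaptors of activating myeloid and NK receptors, were at 1233 to 1548 CPM and at 1593 to 1900.1 CPM over the 4 libraries, with log2 fold changes of 0.23 (SE 0.14) and 0.22 (SE 0.13). At such levels, too, the same gain in CPM would give a lower fold change than in a gene that was low in the controls. Of the 11 further genes of this list, 0 passed edgeR's test, 2 passed DESeq2's and 2 had an unadjusted p under 0.05. Their median log2 fold change was 0.22, with a range from -0.13 to 2.80.

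The remaining pathway lists had lower medians than the members. For 12 further myeloid transcription factors the median log2 fold change was 0.09, with 0 calls in edgeR and DESeq2 and 2 genes at an unadjusted p under 0.05. Irf8, a factor of monocyte and dendritic cell development, was at 73.5 and 87.5 CPM in the controls and at 109.5 and 112.0 CPM in libraries 3 and 4, while Cebpa was at about 1 CPM or less everywhere. Among 13 further lysosomal genes 0 passed edgeR's test, 3 passed DESeq2's and 8 had an unadjusted p under 0.05, with a median of 0.56. Ctsd, an aspartic protease that all cells use, was at 2107 and 2120.2 CPM against 2305 and 2901 CPM. Of 9 further Toll-like receptor and adaptor genes 0 passed edgeR's test, 2 passed DESeq2's and 4 had an unadjusted p under 0.05 (median 0.49). Of 8 further MS4A genes 0 passed edgeR's test, 2 passed DESeq2's and 2 had an unadjusted p under 0.05 (median 1.003). The 4 further colony stimulating factor receptor genes had 0 calls in either tool, 0 at an unadjusted p under 0.05, and a median of 0.68. The 4 further adhesion receptors had 0 calls in edgeR, 1 in DESeq2, and 1 gene in each direction at an unadjusted p under 0.05 (median 0.05).

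**Figure D3:**
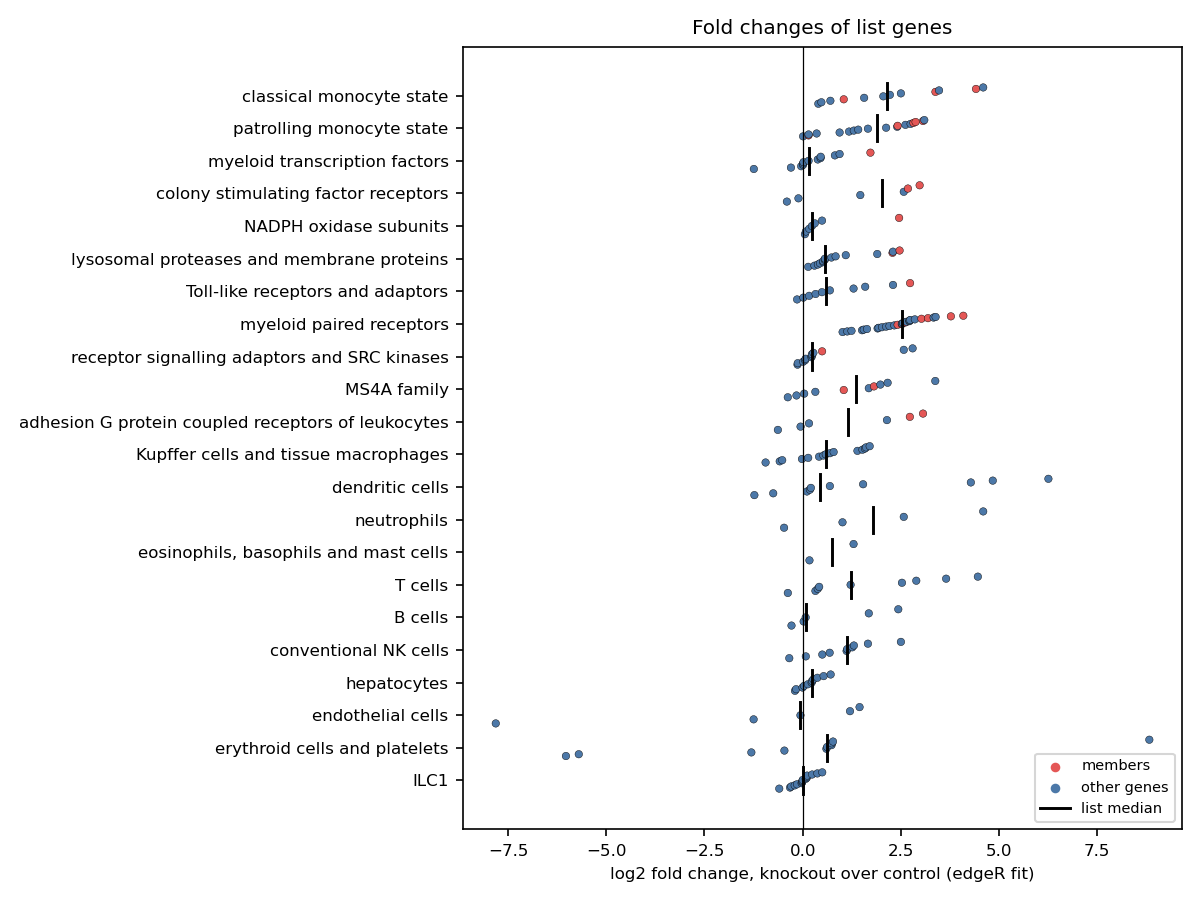
Fitted log2 fold change (libraries labelled knockout over control) of each tested gene in each list, with members and other genes in different colours and a bar at the list median. Paired receptors have a median of 2.53, while NADPH oxidase subunits have a median of 0.23 with Cybb apart from the rest at 2.45.

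The ratio between libraries of the same genotype was not itself used to choose the members. It is not independent of the choice, since genes seen higher in libraries 3 and 4 may be those on which these libraries agree. Library 4 against library 3 gave ratios from 0.63 for Ear2 to 3.01 for Mpeg1, with a median of 1.03, against 0.99 over all genes tested. Within 1.5-fold lay 29 of the 34 members. No share of all genes within 1.5-fold was taken, so nothing is read from that count. The exceptions on the high side were Mpeg1, Wfdc17, Cd68 and Tlr13, all higher in library 4. T cell markers and erythroid and platelet genes were also higher in library 4, with median ratios of 2.36 and 3.24. Trac, the constant region gene of the T cell receptor alpha chain, was at 85.1 CPM in library 3 and 201 CPM in library 4. Lyz2 and Csf1r were nearly equal in these libraries.

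Between the controls the members varied more. Low counts alone widen a ratio, and Chil3 rested on 45 and 4 counts there and Fn1 on 8 and 31. In both controls 23 members were under 5 CPM. Other members whose CPM differed by over 1.5-fold had more counts. Higher in control 2 were Lyz2 (2502 and 3376 counts), Csf1r (519 and 703), Treml4 (263 and 687) and Adgre4 (139 and 455). Lower in control 2 was, for example, Ear2 (144 and 58). The cause of these differences was not tested. Control 2 against control 1 gave ratios from 0.11 for Chil3 to 4.76 for Fn1 over 32 members detected in both, with a median of 1.45, against 1.03 over all genes tested. Of all 34 members, 28 were higher in control 2, against 7941 of all 14863 genes tested. Of the 32, 15 were higher by at least 1.5-fold and 5 were lower by that factor. No share of all genes past 1.5-fold was taken. Adgre4 and Treml4 were 4.02 and 3.21 times higher in control 2. Among the patrolling genes 8 were at least 1.5 times higher in control 2 and 2 were lower by that factor, and among the classical genes 3 were higher and 6 lower. The median ratio was 1.33 for the patrolling list and 0.80 for the classical list. This is the ratio of a single pair of libraries, so it has no replicate check.

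**Figure D4:**
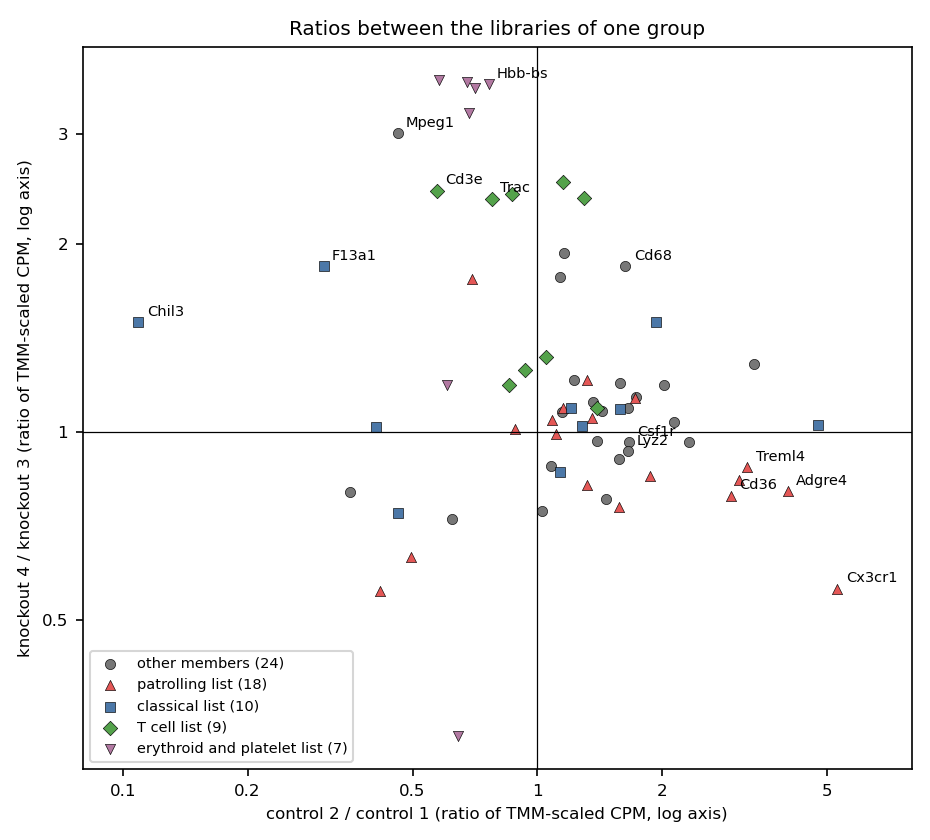
Ratio of TMM-scaled CPM in control 2 over control 1 (horizontal, log axis) against that in library 4 over library 3 (vertical, log axis) for members and list genes with at least 3 counts in each of the 4 libraries. Adgre4 and Treml4 lie to the right at 4.02 and 3.21, Chil3 lies to the left at 0.11, and the T cell and erythroid genes lie toward the top.

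Markers of other cells that the sort could hold were compared beside these results. Of 19 Kupffer cell and tissue macrophage genes, 15 were tested, 0 passed edgeR's test, 2 passed DESeq2's and 4 had an unadjusted p under 0.05, with a median log2 fold change of 0.59. Their summed level was 156.6 and 86.6 CPM in the controls and 345.4 and 229.6 CPM in libraries 3 and 4. Apoe, an apolipoprotein of macrophages and hepatocytes, was at 78.3 and 16.8 CPM against 221 and 89.2 CPM, with groups that did not overlap, and C1qb, a complement subunit of tissue macrophages, was at 13.2 and 7.15 CPM against 32.3 and 29.9 CPM. The defining Kupffer gene Clec4f was at 5.69 and 4.80 CPM against 4.79 and 0.68 CPM. Timd4 was at 0 in control 1 and library 3 and under 1 CPM in the others. The part of macrophages in the members' levels was not tested.

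Neutrophil markers were nearly absent, with 10 of 13 under 1 CPM in every library, S100a8, S100a9 and Ly6g among them, and Retnlg was at 0 in all 4. Mmp9, the gelatinase B gene, made up most of their summed level of 102.8 and 97.6 CPM against 250.2 and 168.1 CPM. Of the 4 neutrophil genes tested, 0 passed edgeR's test, 2 passed DESeq2's and 2 had an unadjusted p under 0.05 (median 1.79). The dendritic cell list summed to 555 and 571 CPM against 592 and 639 CPM, with Itgax, a gene that ILC1s also express, at 480 to 538 CPM, and had 0 calls in edgeR and 3 in DESeq2, all higher, and at an unadjusted p under 0.05 it held 3 genes higher and 1 lower (median 0.45). Those 3 were Cd209a, a lectin that monocyte-derived dendritic cells also express, at 0.017 and 0.42 CPM against 7.52 and 4.93 CPM, Batf3 at 0.14 and 0.085 CPM against 1.35 and 3.09 CPM, and Ccr7 at 0 and 0.021 CPM against 1.09 and 0.79 CPM. The part of such cells in the members' levels was not tested. Flt3 and Clec9a, defining genes of dendritic cells, were under 1 CPM everywhere. The list for eosinophils, basophils and mast cells summed to 3.62 to 7.79 CPM, with a median of 0.73 over 2 tested genes.

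T cell markers differed in the same direction as the members. Their summed level was 2459 and 2426 CPM in the controls and 2958 and 4017 CPM in libraries 3 and 4. Of 9 tested, Trac alone rose in edgeR, from 7.31 and 5.67 CPM in the controls (log2 fold change 4.46, SE 0.45, edgeR adjusted p = 0.049), and 6 were higher at an unadjusted p under 0.05 (median 1.22). The conventional NK cell list had a median of 1.13, with 0 calls in edgeR and 2 genes higher at an unadjusted p under 0.05. Medians were 0.08 for B cells, 0.23 for hepatocytes, -0.06 for endothelial cells, 0.61 for erythroid cells and platelets, and 0.00 for ILC1s. Hepatocyte markers summed to 183.9 and 122.4 CPM against 163.8 and 194.7 CPM, and Alb was at 24.99 and 24.05 CPM against 28.6 and 25.1 CPM. The part of T cells and other cells in the members' values was not tested.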

How the data were processed

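RNA was measured in 4 mouse ILC1 libraries (2 control, 2 labelled knockout), made with a low-input SMARTer kit and run on a NovaSeq instrument (per the labels' protocols). The authors deposited raw read counts per gene. The submitters' processing notes name STAR, featureCounts, Subread, bcl2fastq, DESeq2 and mm10. Tool roles, annotation and strand setting are not given in the sources used here, so overlapping genes and near-identical copies have uncertain values.

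The table's 40757 lines were reduced to 40481 genes by dropping 276 repeated lines. Counts passing filterByExpr (14863 genes) were scaled with TMM factors and fitted with edgeR 4.0.16 (robust quasi-likelihood test, two-sided, 2 residual degrees of freedom, R 4.3.3) on genotype alone, with Benjamini-Hochberg adjustment over all genes. The script was tested on simulated counts. CPM per kb used exon lengths of GENCODE M21. Positions and exon overlaps came from the same annotation, which held 40254 of the genes. Floors of 3 counts and intervals cover counting error only.

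The members and all 22 lists were chosen with earlier results of these data known. The members were tested only within the fit over all genes, and their calls are a description, since the choice used the same contrast. Named genes were all members, all genes of both monocyte lists, the list genes that passed the test, up to 4 others per list with the highest mean CPM, Inpp4b and Ncr1. Others, such as Cd300ld, Pilra, Cebpa, Clec4f, Timd4, Cd209a, Batf3, Ccr7 and further markers at low level, were chosen after their values were seen. Not every gene under this rule is reported here.

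Alternatives were other size factors (RLE, upper-quartile), no filter, a minimum of 50 counts in at least 2 libraries, DESeq2 1.42.0, limma-voom (limma 3.58.1), thinning to the smallest library and leaving out each library. A replicate block was added after seeing the data.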

Additional observations from a re-analysis of the deposited data

How the results depend on the processing

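The count of genes past the adjusted threshold moved most. In edgeR 21 genes were higher and 2 lower. No filter on low counts gave 299 and 264, the stricter filter 40 and 9, DESeq2 278 and 203, and thinning to the smallest library 3 and 0 (1407 genes at an unadjusted p under 0.05). Leaving out 1 library gave 0 to 18 higher and 0 to 2 lower. Described in the same way, members past the threshold numbered 11, with 30 under no filter, 30 in DESeq2, 1 after thinning, and 0 to 1 with a library left out. Of the 23 genes called, 23 were also called by DESeq2 and 16 by limma-voom. The cause of these shifts was not tested. Medians kept their sign under all alternatives run, at 2.43 to 2.94 for the members, 1.60 to 2.37 for the classical list and 1.57 to 2.33 for the patrolling list. Members with groups that did not overlap numbered 33 to 34, while 19.5% of all genes lay above in the main fit. The 34 arose only with a library left out, which makes separation easier for every gene. Of the genes followed, Pglyrp1, Mgst1, Itgal and Cebpb changed sign under at least 1 alternative. Precision is limited by 2 libraries per group and, for Chil3, Mcub, Stom and Fn1, by few control counts. The sample labels number the libraries apart, while the deposited column names give 1 and 2 in both groups, so library 3 shares a number with control 1 and library 4 with control 2. Nothing says that these numbers mark a pair, and the correlation of same-numbered deviations was 0.071 across 14863 genes. A replicate block on them, added after seeing the data, left 1 residual degree of freedom and gave 0 genes higher, 0 lower and 0 members past the edgeR threshold, with 1709 genes at an unadjusted p under 0.05.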
